A study of Rattus norvegicus with 4 samples.

Results

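Schwann cell myelin spots of rat trigeminal nerve were described as the spots in which 5 genes of the peripheral myelin sheath were most abundant. Spots with 2000 or more unique molecular identifiers (UMIs, each marking 1 captured transcript) were ranked in each capture area by the summed level of Prx, Egr2, Drp2, Ncmap and Cldn19, in CPM (the UMIs of each spot scaled to a common total), and the highest 10% were kept. These were 662 of 6773 spots. A further 5961 spots reached 2000 UMIs without being among the highest, and served for comparison. A spot of this Visium slide is 55 μm wide and can hold several cells or fibres of different types.

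Myelinating Schwann cells each wrap a segment of 1 peripheral axon in compacted membrane, whereas in the brainstem and the central part of the nerve root myelin is made by oligodendrocytes. Both kinds of myelin share some proteins, such as myelin basic protein (Mbp), but peripheral myelin protein 22 (Pmp22) belongs to peripheral compact myelin. Egr2 encodes the zinc finger transcription factor that drives the myelin program of Schwann cells. Periaxin (Prx) and Drp2 join the outer Schwann cell membrane to the basal lamina through dystroglycan, Ncmap encodes a small protein of non-compact myelin, and Cldn19 a tight junction protein of Schwann cells.

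The data came from wild type rats, given in the methods as adult male Sprague-Dawley animals, in which trigeminal neuralgia (TN) was modelled by unilateral compression of the trigeminal nerve root. Capture areas TN1, TN2 and TN3 held the root, ganglion and proximal branches of the compressed side, 1 animal per area. The single healthy control (HC) area combined tissue of 2 animals that cannot be separated by spot. The series description takes this tissue from the healthy side of 2 of the 3 TN rats, whereas the methods speak of sham operation. If the former holds, HC shares animals with the TN areas it is tested against. One label of the HC sample names its source as trigeminal neuralgia, while its title and description give it as the control, which was followed here. Compression of the root models a mechanical lesion, and tissue was taken once behavioural tests had stabilised, on a day that is not stated.

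TN1 held 1587 spots, TN2 held 1256, TN3 held 1917 and HC held 2013, of which 9, 16, 116 and 9 had fewer than 2000 UMIs. The Schwann cell myelin spots were 158 in TN1, 124 in TN2, 180 in TN3 and 200 for HC. Summed over these spots, TN1 had 1270627 UMIs, TN2 had 3987990, TN3 had 2152972 and HC had 3325797. The median spot of TN1 held 7309 UMIs, that of TN2 30022, of TN3 11618 and of HC 16207. Mitochondrial transcripts made up 7.51% of the UMIs of these spots in TN1, 6.80% in TN2, 6.55% in TN3 and 4.69% for HC, against 11.8%, 7.93%, 7.56% and 6.0% in the other spots. The areas draw on a common list of barcodes. Of 3573 distinct barcodes, 2337 occurred in more than 1 area, and 14 barcodes marked a Schwann cell myelin spot in more than 1 area.

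The summed level of the 5 genes, which chose the spots, reached a median of 4350 CPM per chosen spot in TN1, 2007 in TN2, 3274 in TN3 and 2547 for HC, against 223, 341, 596 and 405 CPM in the other spots. The lowest chosen spot stood at 3736 CPM in TN1, 1650 in TN2, 2705 in TN3 and 1976 for HC, and the next spot below it at 3732, 1649, 2704 and 1975 CPM. The ranking was therefore cut through a continuous range, and a fixed share of each area entered whatever its level. The level at the limit was more than 2-fold higher in TN1 than in TN2. A median of 33 UMIs of the 5 genes stood behind a chosen spot in TN1, 59 in TN2, 40 in TN3 and 42.5 for HC, and all 5 genes were detected in 56.3%, 75%, 60% and 35.5% of the chosen spots.

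**Figure D1:**
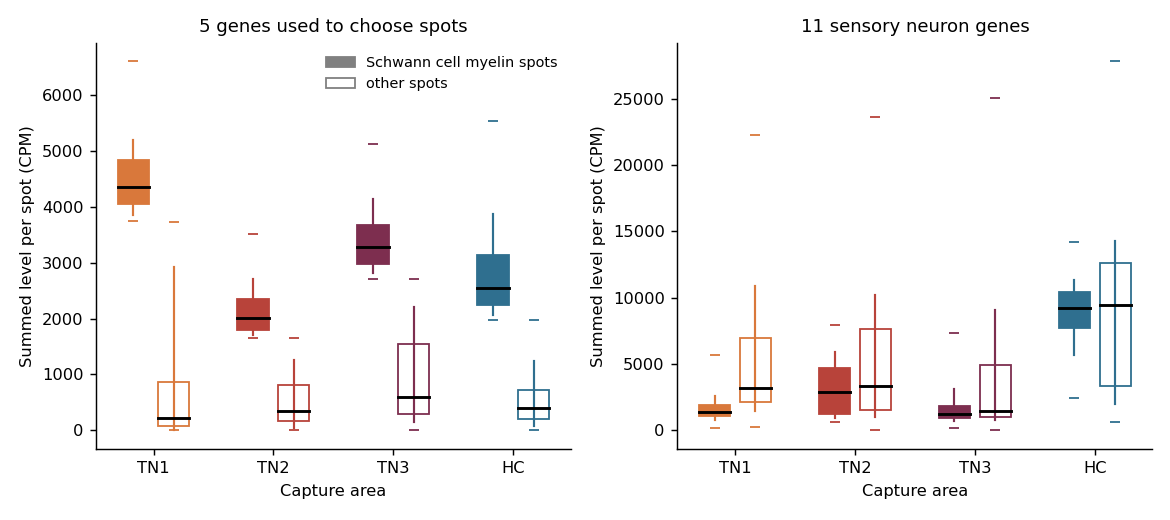
Summed level per spot, in CPM, of the 5 genes used to choose spots (left) and of 11 sensory neuron genes (right), in Schwann cell myelin spots (filled boxes) and other spots (open boxes) of each capture area. Boxes run from the first to the third quartile with the median as a black line, vertical lines from the 10th to the 90th percentile, and dashes mark the lowest and highest spot. The left panel shows the choice itself, and the right panel shows chosen spots of HC around 9206 CPM of sensory neuron genes where those of TN1 and TN3 lie near 1383 and 1258 CPM.

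Promoters of 3 of the 5 genes are shown because Egr2, itself among the genes used, encodes a factor that binds GC-rich sites and regulates peripheral myelin genes. The windows are the 300 bases around the first annotated start (250 before it and 50 from it on), from RefSeq on the GRCr8 build, written 5′ to 3′ along the gene. Capitals mark letters that match GNGNGGGNG, the form of an EGR site, on either strand; all matches here were on the opposite strand, and overlapping matches run together. Prx lies at chr1:91914171-91914470 on the plus strand, Ncmap at chr5:152902365-152902664 on the minus strand, and Drp2 at chrX:101900761-101901060 on the plus strand.

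Prx: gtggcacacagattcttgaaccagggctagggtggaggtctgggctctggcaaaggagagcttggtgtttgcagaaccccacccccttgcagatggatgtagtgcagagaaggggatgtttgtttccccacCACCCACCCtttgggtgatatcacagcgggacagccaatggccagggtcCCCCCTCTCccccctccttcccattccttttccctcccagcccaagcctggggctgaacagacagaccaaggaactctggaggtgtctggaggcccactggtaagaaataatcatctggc

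Ncmap: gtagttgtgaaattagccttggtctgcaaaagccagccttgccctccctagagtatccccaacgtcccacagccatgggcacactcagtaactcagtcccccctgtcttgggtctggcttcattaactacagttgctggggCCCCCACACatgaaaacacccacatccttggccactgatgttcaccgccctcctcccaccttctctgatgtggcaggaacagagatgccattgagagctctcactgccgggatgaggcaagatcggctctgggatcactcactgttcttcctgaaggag

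Drp2: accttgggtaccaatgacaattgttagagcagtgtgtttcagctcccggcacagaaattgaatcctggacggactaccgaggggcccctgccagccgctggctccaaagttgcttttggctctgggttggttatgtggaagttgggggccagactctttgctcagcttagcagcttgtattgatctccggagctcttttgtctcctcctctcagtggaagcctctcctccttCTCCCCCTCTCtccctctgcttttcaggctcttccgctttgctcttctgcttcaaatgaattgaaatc

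The Prx window held 2 matches, the Ncmap window 1 and the Drp2 window shown 2 that overlap. None was found in another window of Drp2 (chrX:101901036-101901335) or in those of Egr2 and Cldn19. Such letters occurred in 36.7% of 33469 windows of rat genes, so that a match describes the sequence and does not show binding, which was not tested. The letters ACAANG, a form of the SOX site, occurred in 42.1% of all windows and in none of the 5 genes. Among the 15 leading genes described below, 9 had a window, of which 4 held the EGR form and 2 the SOX form.

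When each of the 5 genes was left out of the choice in turn, the spots chosen by the other 4 genes still carried more of the gene left out. Prx stood 6.01-fold higher in TN1, 3.47-fold in TN2, 3.08-fold in TN3 and 4.26-fold for HC than in the other spots. Egr2 gave 5.39, 2.90, 2.47 and 3.49-fold, and Ncmap 5.93, 4.56, 4.26 and 4.51-fold. Between 67.2% and 98.4% of the chosen spots were chosen again without a given gene, with the lowest share for Prx in TN3. Both choices share 4 genes, and Prx makes up most of the sum, so that this share is largely set by the way of choosing. Spots chosen in this way share a section and a library.

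**Figure D2:**
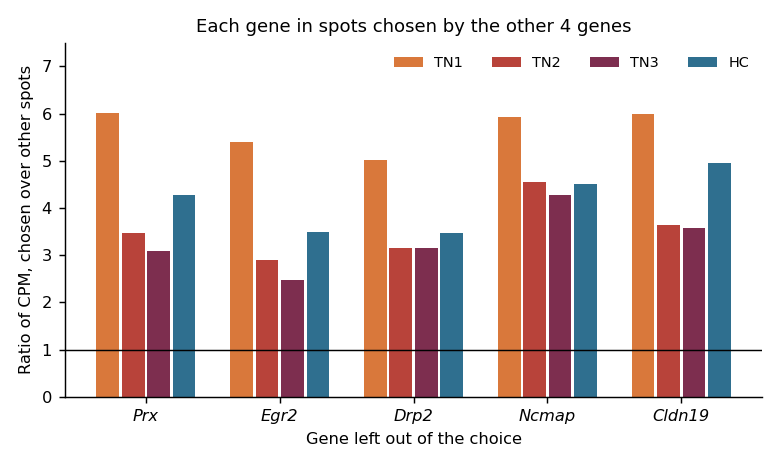
Ratio of CPM (linear axis from 0) of each of the 5 genes between spots chosen by the other 4 genes and the remaining spots, in each of 4 capture areas. Bars are single ratios of summed counts without replicate error, and the line marks a ratio of 1. Every bar lies above 1, from 2.47 for Egr2 in TN3 to 6.01 for Prx in TN1.

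Markers that were not used for the choice described the spots as peripheral nerve. The genes listed for Schwann cell compact myelin, Pmp22 and Pmp2 among them, summed to 128141 CPM in the chosen spots of TN1, 57145 in TN2, 96388 in TN3 and 72016 for HC, against 20177, 16970, 29581 and 14433 CPM in the other spots. Of the 662 spots, 438 (66.2%) were also among the highest 10% of their area for these genes. The share was 50% in TN1 (95% exact binomial interval 42.0 to 58.0), 69.4% in TN2 (60.4 to 77.3), 61.1% in TN3 (53.6 to 68.3) and 81.5% in HC (75.4 to 86.6), and the intervals cover counting error only. None of the 662 spots was among the highest 10% for central myelin genes or for astrocyte genes, which for single areas allows a share of up to 1.5% in HC, 1.67% in TN3, 1.90% in TN1 and 2.42% in TN2 (3 spots of those chosen in the area, for counting error only). Only 2 of them, both in HC, were among the highest 10% for sensory neuron genes and 3, also in HC, for genes of repair and immature Schwann cells. Connective tissue was nearer, with 123 spots (18.6%) among the highest for its genes, of which 61 lay in TN1. By these markers the spots are rich in Schwann cell myelin and hold other tissue as well, and the neuronal genes of HC are given further on.

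Of 8069 genes with a mean of 10 CPM or more in either kind of spot, 70 (0.868%) were at least 2-fold higher in the Schwann cell myelin spots of all 4 areas and 58 (0.719%) at least 2-fold lower. The spots were chosen by values of this same contrast, so these counts carry no test and are given as a description. The 5 genes of the choice are among the 70. A difference of any size in the same direction in all 4 areas was more common, with 1336 genes (16.6%) higher and 3162 (39.2%) lower.

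Pmp22, whose gene dosage is altered in inherited neuropathies, reached 32018 CPM in the Schwann cell myelin spots of TN1, 13312 in TN2, 23332 in TN3 and 18083 for HC, against 5601, 4036, 7429 and 4288 CPM in the other spots, a ratio of 5.72, 3.30, 3.14 and 4.22. All 4 summed levels lay above all summed levels of the other spots, but single spots overlapped. In TN1 the highest other spot had 54350.5 CPM of Pmp22 and the highest chosen spot 53977. In TN2, TN3 and HC the highest other spot had 14149, 37150 and 24349 CPM. These lay below the highest chosen spot of the area but above its median chosen spot. Pmp2, a fatty acid binding protein of myelin, reached 1173, 1032, 896 and 512 CPM with ratios of 5.87, 4.32, 2.47 and 4.19. For both genes TN1 had the largest ratio and TN3 the smallest.

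The 15 leading genes, those outside the choice with the largest ratio in their weakest area at 50 CPM or more, included Pmp22 but also genes that are not structural parts of the sheath. Cntf, the ciliary neurotrophic factor stored by myelinating Schwann cells, stood at 726 CPM in TN1, 224 in TN2, 496 in TN3 and 313 for HC, against 152, 60.1, 145 and 77.8 CPM elsewhere. Its ratio was between 3.43 and 4.79, and the mean log2 ratio was 1.98 ± 0.21 (SD, 4 areas), the smallest spread of the 15. Sema5a, which encodes a transmembrane semaphorin that acts on axon guidance receptors, stood at 601, 197, 367 and 277 CPM, with ratios of 4.95, 3.16, 3.03 and 3.10. Members of the small heat shock family were among them. Cryab (αB-crystallin) reached 3131, 1202, 2504 and 1759 CPM with ratios of 2.83 to 4.84, and Hspb2, which lies beside it in the genome, 338, 147, 225 and 193 CPM with ratios of 3.28 to 5.89. Mal, a lipid raft protein of myelin, had ratios of 2.74 to 4.66, and Mlip, first described as an interactor of lamin, had the largest ratio in its weakest area among them, with 3.65 in TN3 and 7.11 in HC. Others were Slc36a2 (an amino acid transporter), Fxyd6 (a modulator of the sodium pump), Arhgap19, Il16, Fam83f, Emid1 and Lims2, with ratios between 2.60 and 6.41.

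**Figure D3:**
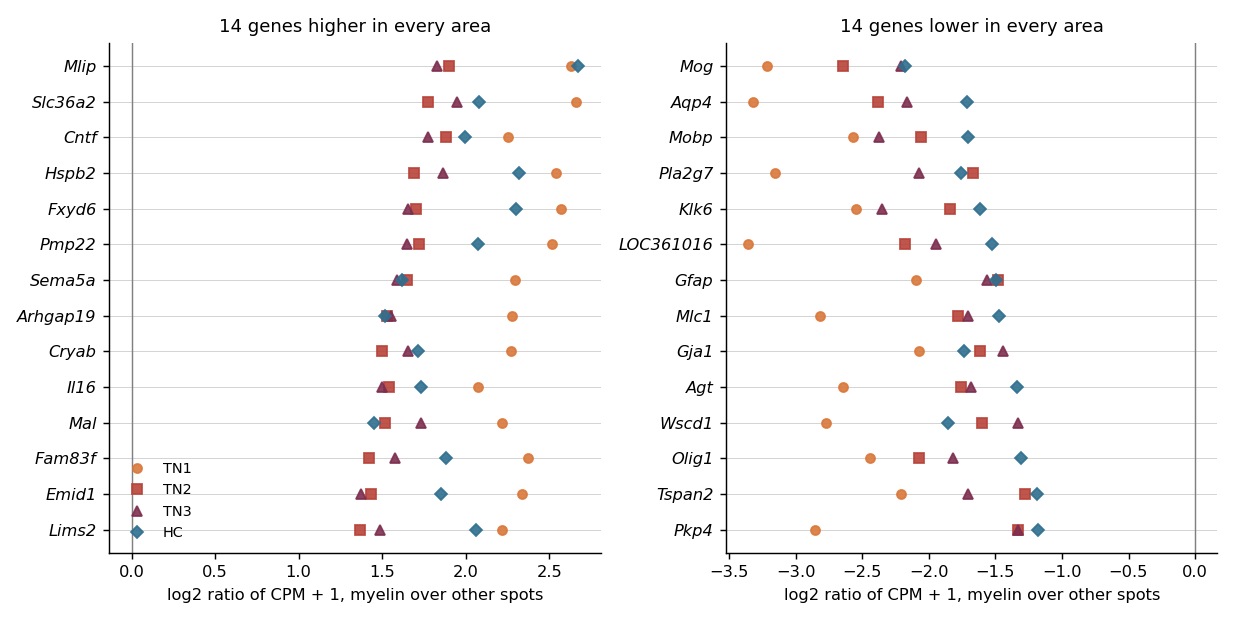
Log2 ratio of CPM + 1 between Schwann cell myelin spots and other spots in each of 4 capture areas (1 symbol per area) for 14 of the leading genes in each direction. The line at 0 marks equal levels. The 14 genes on the left lie between 1.37 and 2.67 and the 14 on the right between -3.35 and -1.18, with TN1 mostly the farthest from 0.

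Genes of the Schwann cell apparatus around the sheath were higher by less. All 10 genes of dystroglycan complex and basal lamina that reached 10 CPM (of 11 listed) were higher in all 4 areas, against 16.6% of all genes. Their median log2 ratio was 0.95 against -0.13 over all genes, though none was 2-fold higher in all 4 areas. Dystroglycan (Dag1), the receptor to which Drp2 and periaxin attach, had ratios of 3.30 in TN1, 2.00 in TN2, 1.81 in TN3 and 2.16 for HC. The laminin subunit Lamb1 had 3.77, 1.82, 1.39 and 2.09, and the integrin subunits Itga6 and Itgb4 1.46 to 3.71 and 1.54 to 3.16. Gldn, the gliomedin with which Schwann cell microvilli cluster sodium channels at the node, was 6.06, 3.42, 2.34 and 3.83-fold higher and the only 1 of 8 measured genes for gap junctions, incisures and glial adhesion that was 2-fold higher throughout.

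Of the Schwann cell transcription factors, 4 of 10 reached 10 CPM and 3 were higher in all 4 areas. Over all genes, 16.6% were higher in all 4 areas and 39.2% lower. Sox10, which Schwann cells require at every stage, stood at 288 CPM in TN1, 376 in TN2, 320 in TN3 and 245 for HC, with ratios of only 2.16, 1.55, 1.19 and 1.64. Pou3f1, a factor of the promyelinating stage, had ratios of 5.07, 2.22, 1.12 and 2.70. Yap1 was at 0 UMIs in the chosen spots of all 4 areas. Of 6 genes for signalling from axon to glia, 3 were higher in all areas and 2 lower. Erbb3, the receptor for neuregulin, had ratios of 2.64, 1.64, 1.06 and 1.91 and Erbb2, its partner, 3.27, 1.63, 1.2 and 2.36. The lower ones were Lpar1, a receptor of lysophosphatidic acid, with 0.773, 0.819, 0.808 and 0.550, and Nrg1, the neuregulin itself, with 0.189, 0.712, 0.299 and 0.891. Of 9 genes mutated in demyelinating neuropathies, 6 reached 10 CPM, of which 3 were higher in all areas and 2 lower (over all genes 16.6% and 39.2%), with Ndrg1 at 2.07 to 3.31-fold and Sh3tc2 at 2.01 to 4.85-fold. The 2 lower genes were Sbf1, with ratios of 0.542 to 0.890, and Gdap1, with 0.166 to 0.600. Cholesterol, in which myelin membrane is rich, gave a weaker picture: 7 of 16 synthesis genes were higher in all 4 areas and 1 lower, with a median log2 ratio of 0.13.

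Myelin genes that Schwann cells and oligodendrocytes share divided into both directions. Of 11, 6 were higher in all areas and 2 lower, against 16.6% and 39.2% of all genes. Cd9, a tetraspanin, was 2.41 to 4.25-fold higher and Cnp, a phosphodiesterase of non-compact myelin, 1.28 to 1.90-fold. Cldn11, a tight junction protein of central myelin, was lower in all of them. Mbp changed its side, with 12592 CPM against 10164 in TN1, 8351 against 6254 in TN2 and 11580 against 8996 in TN3, but 11850 against 17742 in HC. In HC the level in the Schwann cell myelin spots was within the range of the TN areas, and it was the other spots that held more Mbp.

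Of the 58 genes at least 2-fold lower in every area, 6 were on the central myelin list and 5 on the astrocyte list, and 47 were on neither. Mog, on the outer surface of central myelin, was at 14.9 CPM in TN1, 9.53 in TN2, 11.6 in TN3 and 31.3 for HC, against 147, 64.7, 57.2 and 145 CPM in the other spots, which is 9.85, 6.79, 4.92 and 4.65-fold lower. Aqp4, the water channel of astrocyte endfeet, was 10.4, 5.35, 4.58 and 3.31-fold lower and Gfap, the intermediate filament of astrocytes, 4.32, 2.79, 2.95 and 2.83-fold. All 5 astrocyte genes that reached 10 CPM were at least 2-fold lower in every area, against 0.719% of all genes. Of 9 central myelin genes, 8 were lower in all areas and 6 at least 2-fold, against 39.2% and 0.719% of all genes. The exception was Aspa, an enzyme that splits N-acetylaspartate and supplies acetate for lipid synthesis, which was 2.60, 1.19, 1.74 and 1.89-fold higher in the Schwann cell myelin spots. Other leading genes on this side were Mobp, Olig1, Tspan2, Klk6, Mlc1, Gja1, Agt, Pla2g7, Wscd1, Pkp4 and LOC361016.

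**Figure D4:**
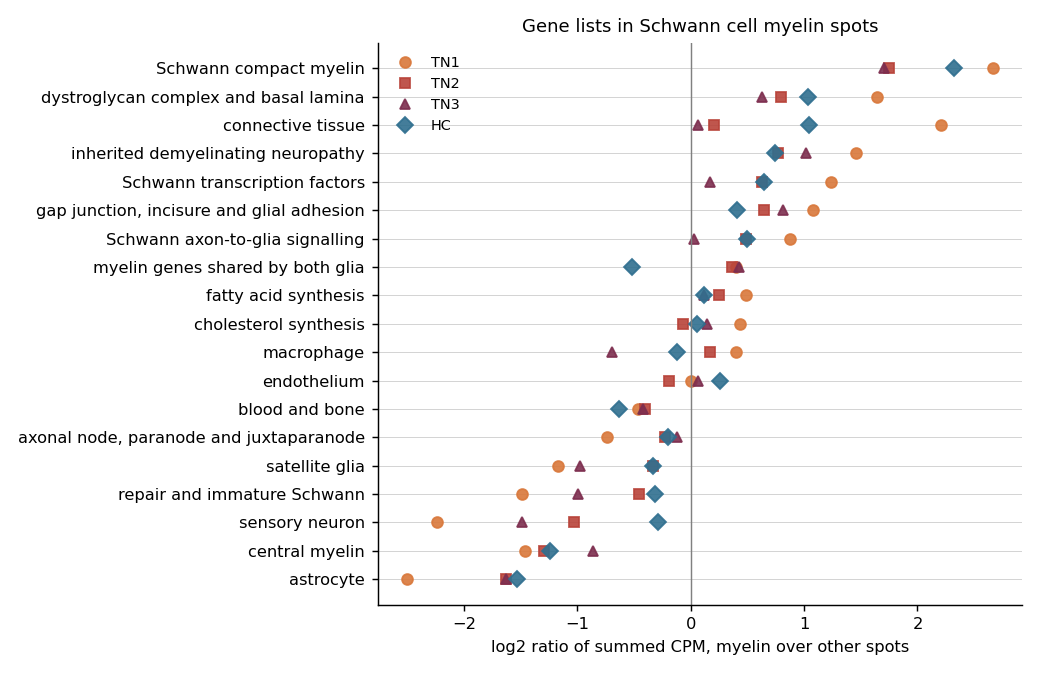
Log2 ratio of the summed CPM of each gene list between Schwann cell myelin spots and other spots, 1 symbol per capture area, with 0 marking equal sums. Compact myelin lies between 1.70 and 2.67, astrocyte and central myelin genes at -0.86 or lower in all areas, and sensory neuron genes range from -2.24 in TN1 to -0.29 in HC.

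All 11 sensory neuron genes were lower in the Schwann cell myelin spots of all 4 areas, against 39.2% of all genes. The areas differed widely. Nefh, the heavy neurofilament of large neurons and their axons, was at 483 CPM against 2571 in TN1, 772 against 1629 in TN2, 494 against 1478 in TN3 and 3667 against 4532 for HC. Of genes for repair and immature Schwann cells, 6 of 12 reached 10 CPM and 4 of these were lower in all areas. Over all genes 39.2% were, and the median log2 ratio of the list was -0.50. Gap43 had ratios of 0.181, 0.429, 0.295 and 0.761, and Jun, the factor of the injury response of Schwann cells, 0.834, 0.896, 0.628 and 0.860. Satellite glia genes were lower in sum in all 4 areas, led by Apoe, which macrophages and other glia also express. Connective tissue genes summed to 4.62-fold the level of other spots in TN1, 1.15-fold in TN2, 1.05-fold in TN3 and 2.06-fold for HC, and the collagen of the endoneurium could not be told apart from that of the sheaths around the nerve.

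Within an area, the spots still differed. The compact myelin genes summed to between 64698 and 202759 CPM in the chosen spots of TN1, 27035 and 134737 in TN2, 37139 and 208761 in TN3, and 26139 and 154695 in HC. Across the spots of HC, Pmp22 and the 5 genes of the choice had a Spearman correlation of 0.63 (200 spots). It was 0.55 in TN2 (124 spots), 0.088 in TN1 (158 spots) and 0.19 in TN3 (180 spots). The spots were kept for a high sum of these 5 genes, which limits its range differently in each area. That sum ran from 3736 to 6604 CPM in TN1 and from 1976 to 5529 CPM in HC. These correlations therefore cannot be compared between areas. Pmp22 and the sensory neuron sum had correlations of -0.57 in HC, -0.36 in TN2, -0.26 in TN1 and 0.0022 in TN3. These are descriptions across spots that share a section, a library and a common total.

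Before TN and HC are compared, the makeup of the spots has to be given, because it differed. The 11 sensory neuron genes summed to 9105 CPM in the Schwann cell myelin spots of HC, whereas TN1 had 1566, TN2 2986 and TN3 1655 CPM. The median chosen spot of HC had 9206 CPM of these genes and the lowest 2461, whereas the medians were 1383, 2854 and 1258 CPM in the TN areas. Only 14 of the 200 chosen spots of HC lay under 5000 CPM, with 153040 UMIs in all, against 156 of 158 in TN1, 94 of 124 in TN2 and 172 of 180 in TN3. The most abundant of these genes in the chosen spots was Nefh. Where in the section these spots lay was not examined. Connective tissue genes went the other way, with sums of 7631, 6564 and 5830 CPM in TN1, TN2 and TN3 and 2753 in HC, as did macrophage genes, with 1387, 2786 and 1793 CPM against 428. Blood and bone genes summed to 511, 160 and 366 CPM against 575, and pituitary genes, led by growth hormone (Gh1), to 15.7, 498 and 104 against 132. Fewer cells of a type and less RNA per cell cannot be told apart in summed spots.

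The sums of TN1, TN2 and TN3 were compared with that of HC by the quasi-likelihood test of edgeR, over all genes that passed its filter. With 1 HC area, the test borrows the spread of TN for it. Condition, capture area and the place of the section cannot be told apart. Of 10482 genes tested, 116 (1.11%) rose and 551 (5.26%) fell in TN at an adjusted p under 0.05, or 6.36% in either direction, whereas DESeq2 called 211 higher and 448 lower. Without TN1, 642 were higher and 843 lower. Without TN3 none passed in either direction, although all 667 kept their sign, with a median of 2.01 for the 116 and -1.72 for the 551. Without the neuron-rich spots (5000 CPM or more) none passed either, with 114 of the 116 and 490 of 537 tested of the 551 keeping their sign. The comparison without neuron-rich spots rests on the 14 HC spots. The median log2 change of the 551 genes moved from -1.91 to -0.97 with it, and that of the 116 from 1.94 to 1.79. Both of these fits reuse counts on which the genes were called. Kept signs are therefore largely set in advance and are given as a description.

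The genes that fell were mostly ones that were lower in Schwann cell myelin spots than around them. Of the 551, 542 reached 10 CPM in the comparison of spots, and 517 (95.4%) of these were lower in Schwann cell myelin spots than in other spots of all 4 areas, against 39.2% of all genes. None was higher in all 4. Of the 116 that rose, 37 of 115 (32.2%) were higher in Schwann cell myelin spots of all 4 areas, against 16.6% of all genes. Both comparisons use the counts of the same chosen spots, so the shares are given as a description.

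Of the 70 genes 2-fold higher in all 4 areas, 65 were not used for the choice, and 0 of these were called higher or lower with edgeR, where 1.11% and 5.26% of all genes tested were. At an unadjusted p under 0.05, 9 were higher and 0 lower, and DESeq2 called 1 higher, Gldn, and 0 lower. For so few genes a count of 0 higher lies near that background. The 65 genes were also picked by the contrast between chosen and other spots. The lowest chosen spot of TN1 had 3736 CPM of the 5 genes, whereas that of TN2 had 1650. Levels of genes that follow this sum, and their spread within TN, are therefore set in part by the choice. The edgeR counts of 0 higher and 0 lower decide nothing about TN against HC in these genes. Their median log2 difference between TN and HC was 0.58, and 21 were above HC in all 3 TN areas and 1 below, against 32.4% and 35.6% of all genes tested. Of the 58 genes 2-fold lower in all 4 areas, 57 were tested, 8 fell (5.26% of all genes) and 37 were below HC in all 3 TN areas, with a median of -1.15. Pmp22 was 13312 to 32018 CPM in TN and 18083 in HC, so that HC lay within the TN range (log2 difference 0.33 ± 0.56, SE; adjusted p = 0.749). Mbp was 8351 to 12592 CPM in TN and 11850 in HC (-0.15 ± 0.39; adjusted p = 0.842). Pmp2 was above HC in all TN areas, at 1173, 1032 and 896 against 512 CPM, but missed the threshold (0.98 ± 0.32; adjusted p = 0.125). Egr2, which was used for the choice and is given without a test, stood at 260, 118 and 184 CPM in TN and 50.8 in HC. With 3 TN areas and intervals this wide, these values do not show that TN and HC were alike.

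Pou3f1, Lamb1 and Lamc1 rose among the listed Schwann cell transcription factors and genes of the dystroglycan complex and basal lamina. Pou3f1 stood at 92.9 CPM in TN1, 124 in TN2, 87.3 in TN3 and 30.4 for HC (1.69 ± 0.28; adjusted p = 0.0230), all TN areas lying above HC. It was 1 of 6 transcription factors tested that passed, against 1.11% of all genes that rose. Lamb1 stood at 483, 480 and 466 CPM against 175 (1.41 ± 0.28; adjusted p = 0.0374), and Lamc1, the laminin chain with which it assembles, at 79.5, 106 and 79.4 against 33.1 (1.37 ± 0.26; adjusted p = 0.0336). These were 2 of 10 dystroglycan and basal lamina genes tested, of which 9 were above HC in all 3 TN areas, compared with 1.11% of all genes tested that rose and 32.4% above HC. Without the neuron-rich spots none of the 3 passed, with Pou3f1 at 2.10, Lamb1 at 0.87 and Lamc1 at -0.16, where HC rested on 4 UMIs for Pou3f1, 43 for Lamb1 and 16 for Lamc1. In the other spots the log2 differences were 2.10 for Pou3f1, 1.46 for Lamb1 and 1.18 for Lamc1, and none passed. The gap between TN and HC in these genes was therefore not confined to the Schwann cell myelin spots. Laminins are also made by perineurial and vascular cells. Neither of 2 perineurium genes tested passed (median 1.01), nor did any of 4 endothelium genes (median 0.04), which summed to 160, 156 and 188 CPM in TN and 152 in HC, and the part of these cells was not tested. Gldn (1.35 ± 0.33; adjusted p = 0.0628) and Erbb3 (1.23 ± 0.35; adjusted p = 0.0924) missed the threshold.

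Of the genes for repair and immature Schwann cells, 10 were tested, 1 rose and 1 fell, against 1.11% and 5.26% of all genes. In all 3 TN areas 6 were above HC and 2 below, against 32.4% and 35.6% of all genes. The median log2 difference of the list was 1.32. Runx2, a transcription factor of bone that injured Schwann cells also express, rose (3.78 ± 0.72; adjusted p = 0.0319) with 11, 27.1 and 13.9 CPM in TN against 1.2 in HC, which rested on 14, 108, 30 and 4 UMIs. Cdh2, the neural cadherin, fell (-1.39 ± 0.30; adjusted p = 0.0457), and was at 0.16 without the neuron-rich spots, where HC held 3 UMIs. Jun was at 101, 235 and 133 CPM against 64.9 (1.21 ± 0.43; adjusted p = 0.149), and Ngfr, the low-affinity neurotrophin receptor, had HC within the TN range. Atf3, which injured neurons and Schwann cells both express, was at 43.3 CPM in TN1, 208 in TN2, 108 in TN3 and 7.82 for HC, above HC in all 3 TN areas with an adjusted p of 0.0513. None of the 16 cholesterol synthesis genes was called, with a median of -0.39 and 5 below HC in all TN areas, a share near the 35.6% of all genes tested.

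The 10 largest rises were Clec3b, Slc6a13, Cemip, Cxadr, Slc16a11, Bmp7, Asgr2, Tcim, Runx2 and Gjb2. Clec3b, which encodes tetranectin, a protein of mesenchymal cells, was at 48.0 CPM in TN1, 47.1 in TN2, 34.4 in TN3 and 1.2 for HC, where it rested on 4 UMIs (5.06 ± 0.49; adjusted p = 0.0126). Cemip, which degrades hyaluronan, was at 109, 140 and 85.5 against 4.21 CPM (4.66 ± 0.42; adjusted p = 0.0126). Slc6a13, a transporter of GABA and taurine, and Gjb2, a connexin, are both known in the meninges, and had 41.7, 80.5 and 101 against 2.41 CPM and 38.6, 86.0 and 59.0 against 4.51 CPM. In the other spots, these 2 genes were at 14.5, 88.8 and 99.2 against 3.82 CPM and 12.1, 120 and 88.2 against 8.60 CPM, so the gap between TN and HC was not confined to the Schwann cell myelin spots. Over all genes of the other spots, 28.5% were above HC in all 3 TN areas and 29.7% below. All 116 genes that rose had a positive difference in the other spots too, with a median of 1.81, and none passed there. Of the 551 genes that fell, 550 had a negative difference in the other spots, with a smaller median of -0.81, and none passed.

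**Figure D5:**
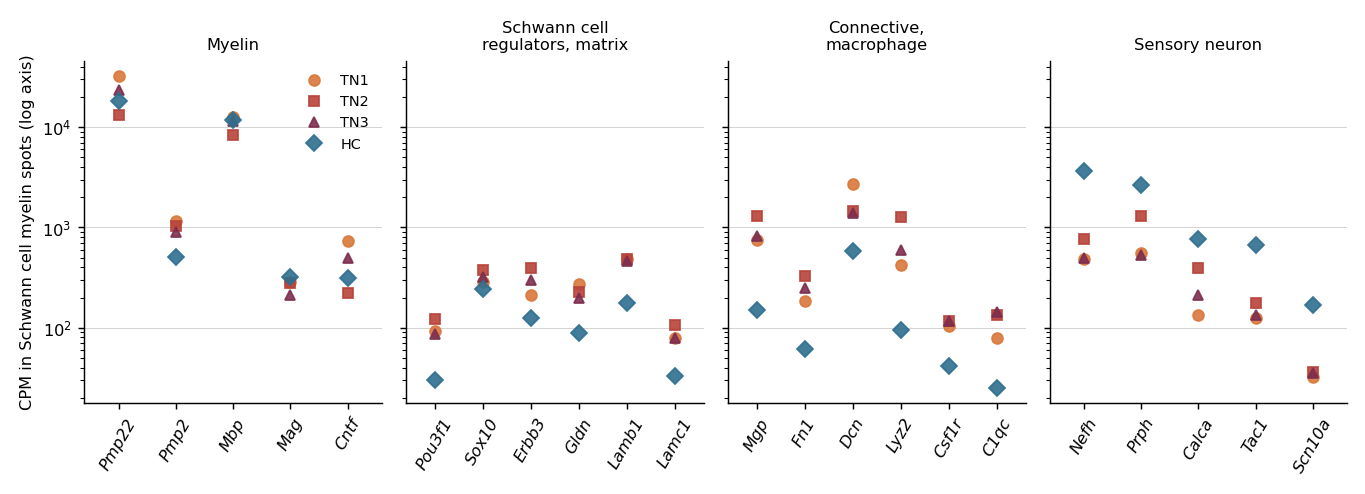
Level in CPM (log axis) of 22 genes in the summed Schwann cell myelin spots of each capture area, with 3 TN areas and 1 HC area and no replicate error within an area. HC lies within or close to the TN points for Pmp22, Mbp and Cntf, below them for Pou3f1, Lamb1, Mgp and Lyz2, and above them for the 5 sensory neuron genes.

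Groups of other cell types rose in part. Over all genes tested, 1.11% rose and 32.4% were above HC in all 3 TN areas. Of 6 connective tissue genes, all were above HC in all TN areas and 2 passed, Mgp, an inhibitor of calcification, with 754, 1307 and 819 against 151 CPM (2.61 ± 0.38; adjusted p = 0.0177) and fibronectin, Fn1, with 186, 331 and 249 against 61.6 CPM (1.99 ± 0.35; adjusted p = 0.0268). Of 9 macrophage genes tested, 8 were above HC in all TN areas and 4 passed, against the same shares of 32.4% and 1.11%. Lyz2, the lysozyme of myeloid cells and the most abundant of the list, had 423, 1265 and 600 against 95.3 CPM (2.92 ± 0.62; adjusted p = 0.0430), and Csf1r, the receptor that macrophages need to survive, 104, 116 and 116 against 41.2 CPM (1.40 ± 0.26; adjusted p = 0.0307). C1qc and Cd74 were the others. Cd163, a marker of resident macrophages, was at 0 to 2.11 CPM in all 4 areas. Of 9 blood and bone genes tested, 6 were below HC in all 3 TN areas and 3 fell (35.6% and 5.26% of all genes), Bglap, S100a8 and S100a9, with S100a8 at 11.8, 5.52 and 6.97 against 31.3 CPM.

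Of the 11 sensory neuron genes, 9 fell and all 11 were below HC in all 3 TN areas, compared with 5.26% and 35.6% of all genes tested. Nefh was at 483 CPM in TN1, 772 in TN2, 494 in TN3 and 3667 for HC (-2.71 ± 0.28; adjusted p = 0.0128). Scn10a, a sodium channel of nociceptors, was at 32.3, 35.9 and 35.8 against 167 CPM (-2.31 ± 0.22; adjusted p = 0.0126), and Tac1, the precursor of substance P, at 126, 176 and 135 against 673 CPM (-2.26 ± 0.24; adjusted p = 0.0129). Without the neuron-rich spots Scn10a was at -0.31, Nefh at -1.61 and Tac1 at -1.31, on 6, 229 and 50 UMIs in HC. Those spots were left out by the summed level of these same 11 genes. The smaller differences are therefore set in part by that choice and decide nothing about these genes. The 10 largest falls, Dsp, Pou4f3, RT1-T24-4, Hs3st2, Slc51a, S100g, P2rx5, Calb2, Grm4 and Lrfn2, are ranked by fitted size and mostly rest on few UMIs in TN. Dsp had 0 to 2 UMIs per TN area against 25 in HC, Slc51a 2 to 6 against 43, P2rx5 1 to 11 against 49, Grm4 2 to 10 against 56 and Lrfn2 2 to 6 against 39, so that these genes passed the filter on low counts through HC. Calb2, the calretinin of some sensory neurons, was at 26, 21.8 and 13.5 against 169 CPM (-3.12 ± 0.32; adjusted p = 0.0126), and Pou4f3, a transcription factor of sensory neurons, rested on 3, 9 and 3 UMIs in TN and 86 in HC. RT1-T24-4, a class I histocompatibility gene, was at 2.36, 4.26 and 3.25 against 42.7 CPM and at 4.31, 6.56 and 3.73 against 43.4 CPM in the other spots. Reads of such genes can be split among near copies, and which animals gave the HC tissue is not settled by the sources. Of 5 genes of the node, paranode and juxtaparanode tested, 1 fell (5.26% of all genes), Cntnap1, with 36.2, 56.4 and 30.7 against 180 CPM (-2.18 ± 0.29; adjusted p = 0.0141), which was at -0.46 and missed the threshold without the neuron-rich spots, and Cntn1, Cntn2, Kcna1 and Kcna2 did not pass. Gdap1, a mitochondrial protein of neurons mutated in inherited neuropathy, fell (-1.97 ± 0.38; adjusted p = 0.0338). It was 1 of 9 tested genes of the demyelinating neuropathy list, against 5.26% of all genes. Without the neuron-rich spots Gdap1 was at -0.99 and missed the threshold, on 2 UMIs in HC.

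In the other spots 14799 genes were tested and 0 passed in either direction with edgeR, 494 being higher and 617 lower at an unadjusted p under 0.05. DESeq2 called 106 higher and 27 lower there, and edgeR 1376 higher and 1151 lower without TN1. Whether TN against HC differed between the Schwann cell myelin spots and the other spots was tested as an interaction term, blocked by capture area. Of 14122 genes tested, 0 passed with edgeR and 0 with DESeq2, but 44 higher and 259 lower passed with edgeR without TN1, while at an unadjusted p under 0.05 the log2 difference of TN minus HC was more positive in the Schwann cell myelin spots for 93 genes and more negative for 751. That balance changed with the scaling and the spots, to 171 more positive and 531 more negative with DESeq2 size factors, and to 370 and 162 without the neuron-rich spots. This does not show that TN and HC differed alike in both kinds of spot. The genes nearest to the threshold with a more negative difference were Ina, Pvalb, Kcnh2, Scn11a and Vip, of which the first 4 are channels, filaments or calcium binding proteins of neurons, and those with a more positive difference Cav3, Ctss, Camp, Defa5 and Tgfa, with adjusted p between 0.542 and 0.563. For Pvalb, the parvalbumin of large sensory neurons, the ratio of Schwann cell myelin spots to other spots amounted to 0.201 in TN1, 0.261 in TN2, 0.355 in TN3 and 0.845 for HC. For Ctss, a lysosomal protease of myeloid cells, it was 0.625, 1.03, 0.420 and 0.160, with 8 UMIs in HC.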

How the data were processed

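RNA on 10 μm sections was captured on 4 Visium areas. The authors deposited UMI counts per gene and spot, made with Space Ranger 1.2.0, as whole numbers without normalization (32623 genes, 6773 spots). Neither genome build nor annotation is given in the sources used here. Areas were read from the number after each barcode, in the order in which the series description lists them. The members, the 26 gene lists (203 genes, 200 found by symbol) and the tests were chosen with earlier results of these data known.

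Spots were ranked by CPM, and counts were summed over chosen and other spots of each area. Ratios between them used CPM + 1 on the log2 scale, or CPM where given as fold, for genes of 10 CPM or more on average. TN was tested against HC with edgeR 4.0.16 (TMM, filterByExpr, quasi-likelihood, 2 residual degrees of freedom, Benjamini-Hochberg at 0.05) in R 4.3.3, so that fitted differences include TMM scaling and printed CPM do not. Errors of fitted differences are SE. Spots were not taken as replicates, and p-values measure the spread between areas. No doublet caller was applied to spots. Scripts were tested on simulated counts.

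Named genes were list genes, the 15 in each direction, outside the 5 genes of the choice, with the largest ratio in their weakest area at 50 CPM or more, and the 10 (interaction: 5) in each direction with the largest fitted difference past the threshold, or else the smallest p, with the 3 TN areas on 1 side of HC. Alternatives were DESeq2 1.42.0, its size factors, no filter, abundant genes left out, other shares of spots (5% and 20%) and UMI limits (1000 and 5000), ranking on counts thinned to 2000 UMIs, spots rich in central myelin genes left out (none was), a pseudocount of 5, a limit of 50 CPM, and each area left out. Leaving out spots with 5000 CPM or more of sensory neuron genes was chosen after seeing the data. Images and spot positions were not used. Some genes of these lists and comparisons, counted in the totals and sums, are not reported here by name.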

Additional observations from a re-analysis of the deposited data

Results flagged for a closer look

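In 6 of the genes named above or on a list, the 3 TN areas lay on 1 side of equal levels between Schwann cell myelin spots and other spots, and HC on the other. The interaction fit with edgeR, which tests this difference, gave adjusted p between 0.542 and 0.726, so none passed. The change of side itself was not tested. Mbp had log2 ratios of 0.31 in TN1, 0.42 in TN2, 0.36 in TN3 and -0.58 for HC. Tgfa, a ligand of the epidermal growth factor receptor, had 1.13, 0.46, 0.82 and -0.28. Cav3, a caveolin, had 0.02, 1.05 and 0.55 in TN and -1.28 in HC, where the Schwann cell myelin spots held 0 UMIs, so that this value depends on the added 1 CPM. Atf3 had -0.96, -0.36, -0.74 and 0.58, with 26 UMIs in the chosen spots of HC. Vip, a neuropeptide, had -2.28, -1.09 and -1.88 in TN and 0.76 in HC, on 15 UMIs, and Pou4f3 had -2.02, -1.09 and -1.67 in TN and 0.24 in HC. The sensory neuron genes of the Schwann cell myelin spots, at 9105 CPM in HC and 1566 to 2986 CPM in TN, differ between the same areas, and their part was not tested.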

How the results depend on the processing

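No paired analysis was possible because HC is 1 area that pools 2 animals, and no label ties it to single TN areas. In the Schwann cell myelin spots, DESeq2 called 211 genes higher and no filter 295, against 116, and without the neuron-rich spots 0 were higher and 0 lower (520 and 399 at an unadjusted p under 0.05). Leaving out 1 TN area gave between 0 (without TN3) and 642 (without TN1) genes higher and between 0 and 843 lower. In the other spots DESeq2 called 106 higher and 27 lower, and leaving out 1 TN area gave 0 to 1376 higher and 0 to 1151 lower, both highest without TN1. For the interaction, 1 gene was lower with no filter and 10 with 5% of spots, and leaving out 1 TN area gave 0 to 44 higher and 1 to 259 lower, again highest without TN1. The median interaction over all genes moved from -0.11 with TMM to 0.02 with DESeq2 size factors and to 0.59 without the neuron-rich spots. Between chosen and other spots, genes 2-fold higher in every area numbered 46 with a pseudocount of 5 CPM and 43 with thinned ranking. Genes 2-fold lower numbered 31 with that pseudocount and 21 at 50 CPM or more. Leaving out 1 area gave 69 to 107 higher (most without TN2) and 54 to 356 lower (most without HC). Of 51 list or named genes called between TN and HC, 0 were called without TN3 and none turned its sign. Without the neuron-rich spots 45 were tested, 0 were called and 3 turned, Lamc1 (-0.16), Cdh2 (0.16) and Trpv1 (1.07), on 16, 3 and 1 UMIs in HC. The Vip interaction also turned (6.64, with 0 UMIs in HC). Among all list or named genes tested, called or not, 45 turned without the neuron-rich spots and 7 without TN3. The cause was not tested. The 51 genes were called on counts that these fits reuse, so signs that they kept were largely set in advance. The other alternatives left the counts within 1.5 times. Genes under about 10 CPM rest on few UMIs in TN1, the shallowest area.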

Other observations

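Genes of iron handling, which were on a list of their own, summed to 25860 CPM in the Schwann cell myelin spots of TN1, 16051 in TN2, 26984 in TN3 and 16350 for HC, against 13195, 13224, 17910 and 14076 CPM in the other spots. Most of this was Fth1, the heavy chain of ferritin, with ratios of 2.29, 1.33, 1.74 and 1.29, whereas Tf, the iron carrier transferrin that oligodendrocytes make, was lower in all areas, at 534 against 950 CPM in TN1 and 526 against 1243 in HC. None of the 11 genes tested passed between TN and HC, where 6.36% of all genes tested did in either direction. For so few genes a count of 0 lies near that background and decides nothing about iron handling. The endothelial genes measured summed to 160, 156, 188 and 152 CPM in these spots and to 159, 178, 180 and 128 CPM in the others. Non-myelinating Schwann cell genes were lower in sum in all 4 areas, at 208 against 231 CPM in TN1 and 202 against 226 in HC, while Cdh19 alone was higher in all of them. Fatty acid synthesis genes summed to 6327, 5123, 5580 and 4760 CPM, led by Scd2, a desaturase, and lay 1.08 to 1.40-fold above the other spots. Perineurium genes had summed ratios of 1.38, 0.904, 1.17 and 1.01, and neuronal injury genes 0.278, 0.505, 0.426 and 0.936. Central neuron genes were near absent, at 15.7, 6.27, 1.86 and 1.5 CPM in sum. Genes of the axonal node, paranode and juxtaparanode had summed ratios of 0.601, 0.855, 0.918 and 0.871.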
